A study of Mus musculus with 14 samples.

Results

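The leukotriene pathway was followed through 7 genes in mouse bone marrow-derived macrophages, chosen by gene symbol from the 25239 symbols of the deposited count table. They were Pla2g4a, Alox5, Alox5ap, Lta4h, Ltc4s, Cysltr1 and Ltb4r1, and all 7 passed the filter on low counts. The study compared Ezh2 knockout (KO) and wild-type (WT) macrophages after 24 hours in medium conditioned by Hepa1-6 cells (CM), a mouse liver cancer line, or in complete DMEM (control medium). The 4 groups were KO in CM (3 libraries), KO in control medium (3), WT in CM (4) and WT in control medium (4). KO mice were Ezh2fl/fl;LysM-Cre+/-, in which the Cre is driven from the lysozyme M locus of myeloid cells. WT cells came from littermate controls, whose floxed and Cre alleles the labels do not give. Marrow of both genotypes was grown for 7 to 10 days with 20% L929 conditioned medium, a source of macrophage colony-stimulating factor, before treatment. Ages and the number of animals are not given in the labels, so every p-value reflects only variation among these libraries, which may be technical.

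Leukotrienes are lipid mediators made from arachidonic acid by myeloid cells. Cytosolic phospholipase A2 (Pla2g4a) frees arachidonic acid from membranes, and 5-lipoxygenase (Alox5), helped by its activating protein FLAP (Alox5ap), oxidises it to leukotriene A4. Lta4h then hydrolyses leukotriene A4 to the neutrophil attractant LTB4, whose high-affinity receptor is encoded by Ltb4r1, whereas Ltc4s joins it to glutathione to make LTC4, parent of the cysteinyl leukotrienes that act on the receptor encoded by Cysltr1.

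Library totals ran between 40.2 and 61.5 M counts (M, 1000000) in KO in CM, 41.8 and 54.4 M in KO in control medium, 41.3 and 85.8 M in WT in CM, and 45.2 and 82.1 M in WT in control medium. In KO libraries, the Ezh2 exon entries of 81 and 85 bases carried 2.07 to 31.7% of the counts per base of the other Ezh2 exons, against 94.0 to 170.0% in WT libraries; these entries were chosen after their values were seen. WT libraries 3 and 4 of both media stood apart: deviations from the group means correlated at 0.31 to 0.47 within libraries 1 and 2 or within 3 and 4, and at -0.43 to -0.35 between these pairs. The split followed depth, with 80.4 to 85.8 M counts in WT libraries 3 and 4 and 41.3 to 50.0 M in WT libraries 1 and 2. The part of depth in the split was not tested. Macrophage identity markers were abundant in every group, with all 8 detected and a summed level of 19200 to 19900 CPM (counts per 1000000 of the scaled library total) in KO in CM, 21300 to 22000 in KO in control medium, 29400 to 32400 in WT in CM and 30200 to 35700 in WT in control medium. Of 9 neutrophil markers the sum was 0.598 to 3.16 CPM over the 4 groups. In each group 5 of 8 mast cell and basophil markers, Fcer1a, Ms4a2, Mcpt4, Mcpt8 and Tpsb2, were at 0 counts. The sum of the 8 was 0.316 to 0.877 CPM over the 4 groups. Cpa3 had 33 counts in KO in CM, 33 in KO in control medium, 129 in WT in CM and 59 in WT in control medium. In the same order Hdc had 36, 47, 57 and 89 counts, and Gata2 3, 4, 6 and 8.

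The upstream sequences of Ltc4s and Ltb4r1, which had the largest rises in CM, and of Alox5, the gene that fell, are shown because these genes moved in opposite directions within one short pathway. Each is the 250 bases before the RefSeq start on GRCm38.p6, read along the gene's strand; the table used held 5 of the 7 genes. Capitals mark matches, on either strand, to 1 of 5 motifs. Alox5 lies on the minus strand at chr6:116461179-116461428, Ltc4s on the minus strand at chr11:50238533-50238782, and Ltb4r1 on the plus strand at chr14:55765712-55765961.
Alox5: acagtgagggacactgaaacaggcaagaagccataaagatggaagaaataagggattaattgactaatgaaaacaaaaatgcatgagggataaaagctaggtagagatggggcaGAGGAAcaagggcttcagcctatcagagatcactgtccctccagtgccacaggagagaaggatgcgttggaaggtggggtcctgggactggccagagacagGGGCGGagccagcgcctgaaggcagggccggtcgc
Ltc4s: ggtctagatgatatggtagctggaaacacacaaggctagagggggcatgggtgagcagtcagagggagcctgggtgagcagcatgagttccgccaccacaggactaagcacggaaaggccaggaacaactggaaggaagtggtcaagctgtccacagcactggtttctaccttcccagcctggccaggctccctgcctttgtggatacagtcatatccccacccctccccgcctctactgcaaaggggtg
Ltb4r1: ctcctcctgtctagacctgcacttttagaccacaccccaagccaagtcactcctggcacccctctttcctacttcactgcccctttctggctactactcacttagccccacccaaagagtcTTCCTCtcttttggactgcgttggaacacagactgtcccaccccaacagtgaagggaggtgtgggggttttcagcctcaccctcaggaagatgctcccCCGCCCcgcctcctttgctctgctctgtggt
The motifs searched on both strands were GGGCGG (Sp1), GAGGAA (core of PU.1, a myeloid factor), TGANTCA (AP-1), TTCNNNGAA (STAT) and the core promoter box TATAAA, and no matches in these windows overlapped. Alox5 held GGGCGG at 35 to 30 bases and GAGGAA at 136 to 131 bases before its start. Ltb4r1 held the same pair of motifs on the opposite strand, at 31 to 26 and at 129 to 124 bases before its start. None of the 5 motifs was found in the Ltc4s window. Of 32851 RefSeq promoter windows of the same length, 32.7% held GGGCGG, 23.3% GAGGAA, 6.75% TGANTCA, 7.02% TTCNNNGAA and 12.4% TATAAA.

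CM moved the pathway in both genotypes, with the LTC4 synthase and both receptors up and 5-lipoxygenase down. In KO, 6 of the 7 genes passed the test, 5 higher and 1 lower in CM; of all 13311 genes tested, 38.1% passed (20.0% higher and 18.2% lower). In WT, again 6 of 7 passed, 5 higher and 1 lower, against 37.3% of all genes (19.3% higher and 18.0% lower). The median log2 fold change of the 7 genes was 0.77 in KO and 0.73 in WT, and that of all genes was -0.01 in each. These shares and medians are descriptions, since the 7 genes were chosen with earlier results of these data known. Calls used edgeR's quasi-likelihood test with Benjamini-Hochberg adjustment over all genes at 0.05, and errors of fold changes are standard errors. In bulk libraries, fewer cells of a type and less RNA per cell cannot be told apart.

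**Figure D1:**
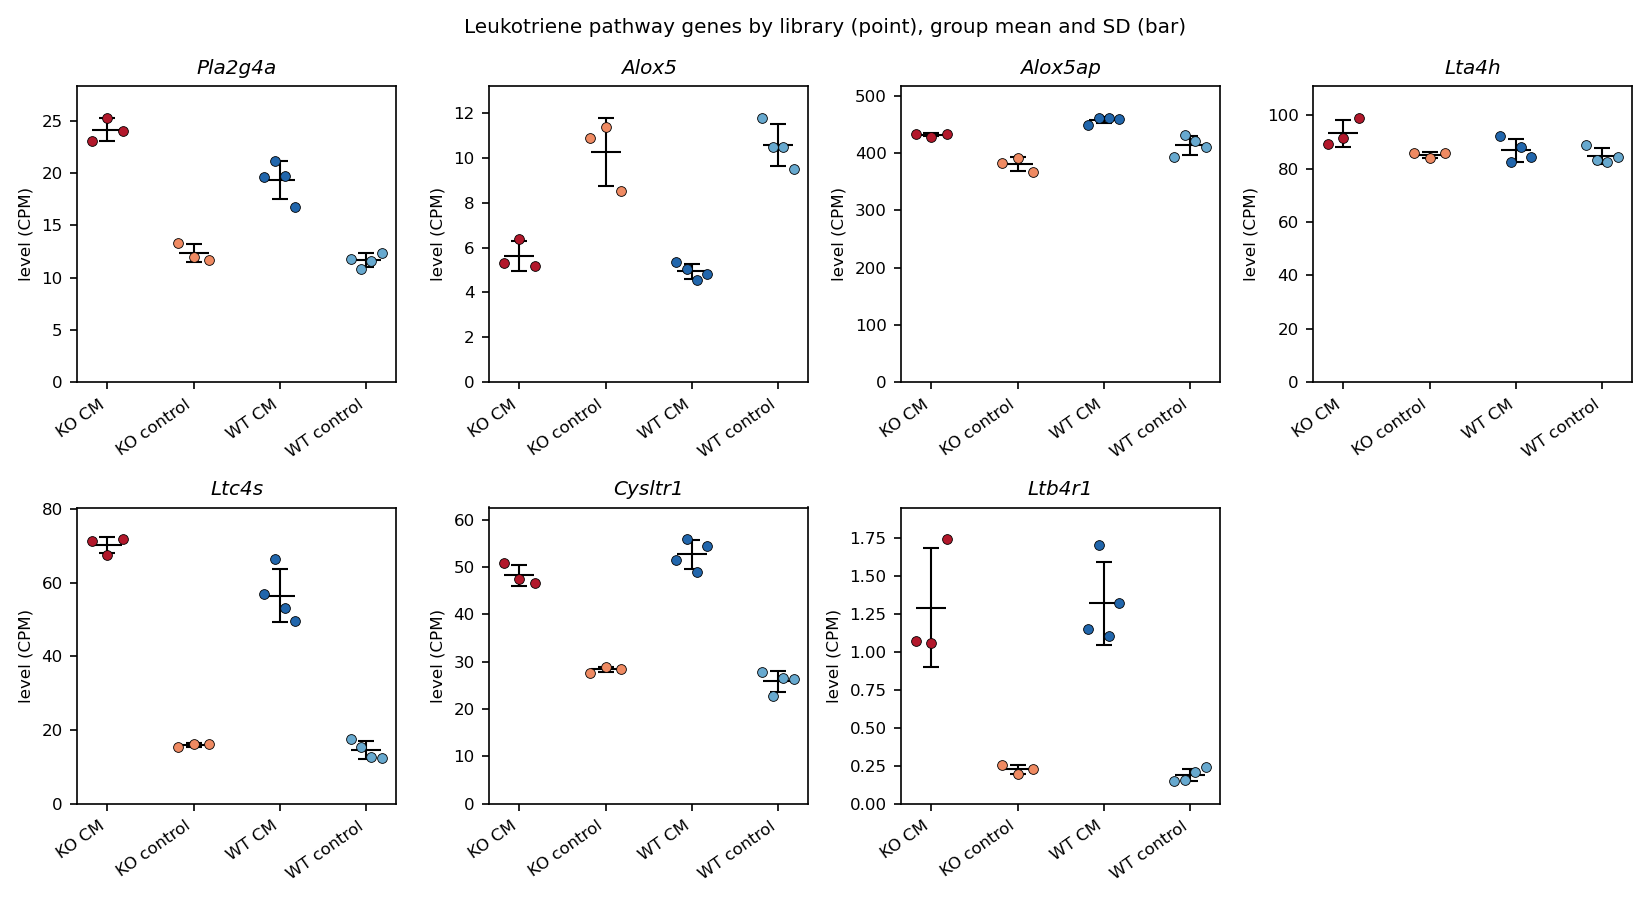
Level of each gene (CPM, linear axis from 0) in every library, one panel per gene; points are libraries, and bars give the group mean and SD (n = 3 per KO group, n = 4 per WT group). Ltc4s, Ltb4r1, Cysltr1 and Pla2g4a lay higher and Alox5 lower in CM without overlap in either genotype, and Lta4h lay within 82.5 to 99.1 CPM throughout.

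Pla2g4a (chr1:149829618-149961290, minus strand), the enzyme that releases arachidonic acid, was higher in CM. It stood at 23.1, 25.3 and 24.0 CPM in KO in CM, against 13.3, 12.0 and 11.7 in KO in control medium. In WT it reached 19.6, 21.2, 19.7 and 16.8 CPM in CM, against 11.8, 10.8, 11.6 and 12.4 in control medium. Every CM library lay above every control library. The log2 fold change was 0.97 ± 0.09 in KO (edgeR adjusted p = 5.17e-07) and 0.73 ± 0.08 in WT (edgeR adjusted p = 2.25e-06). Of its 19 distinct exon entries, the 18 with at least 10 counts were all higher in CM in both genotypes.

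Alox5 (chr6:116410071-116461178, minus strand), the 5-lipoxygenase that makes leukotriene A4, was the only one of the 7 that fell in CM. Its levels were 5.3, 6.4 and 5.18 CPM in KO in CM and 10.9, 11.4 and 8.53 in KO in control medium. They were 5.37, 5.04, 4.56 and 4.84 CPM in WT in CM and 11.8, 10.5, 10.5 and 9.49 in WT in control medium. The highest CM library, at 6.4 CPM, lay below the lowest control library, at 8.53 CPM. Alox5 fell by 0.87 ± 0.13 on the log2 scale in KO (edgeR adjusted p = 5.29e-05) and by 1.09 ± 0.11 in WT (edgeR adjusted p = 9.27e-07), which is 1.83-fold and 2.14-fold lower. Its 14 exon entries were all lower in CM, with log2 ratios of -1.33 to -0.41 in KO and -1.63 to -0.70 in WT. The summed level of 5 dendritic cell markers, cells that also express Alox5, was lower in CM too, at 0.614 to 0.786 CPM in KO in CM and 1.38 to 1.58 in KO in control medium, and at 0.526 to 0.776 in WT in CM and 1.06 to 1.36 in WT in control medium, with Flt3 at 0 counts in CM. Zbtb46 went the other way in WT, at 35 counts in WT in CM and 25 in WT in control medium, but had 9 in KO in CM and 20 in KO in control medium. Xcr1, Clec9a and Siglech averaged lower CPM in CM in both genotypes. The part of dendritic cells in the fall of Alox5 was not tested.

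Alox5ap (chr5:149265004-149288153, plus strand), which encodes the 5-lipoxygenase-activating protein, had the highest level of the 7. It measured 434, 429 and 434 CPM in KO in CM, against 383, 391 and 367 in KO in control medium. In WT it measured 450, 461, 462 and 459 CPM in CM and 393, 432, 421 and 411 in control medium. The groups did not overlap, but the differences were small: 0.19 ± 0.05 on the log2 scale in KO (edgeR adjusted p = 0.00761) and 0.15 ± 0.04 in WT (edgeR adjusted p = 0.0145). These calls did not hold with scaling by library totals only (0.08, adjusted p = 0.211 in KO; 0.06, adjusted p = 0.259 in WT), a scaling that shifted the median of all genes by -0.11 in KO and by -0.08 in WT. They also failed on the most-counted exon alone, at log2 fold changes of 0.19 in KO (adjusted p = 0.105) and 0.15 in WT (adjusted p = 0.142). In WT the value was 0.14 with only the groups compared (adjusted p = 0.0506) and without WT libraries 3 and 4 (adjusted p = 0.0752). Alox5ap shares 189 exon bases with Gm19719 on the opposite strand, and since the strand setting of the counting is not given, reads of the pair cannot be told apart.

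Lta4h (chr10:93453396-93484896, plus strand), whose enzyme makes LTB4, did not pass in either genotype. It stood at 89.2, 91.4 and 99.1 CPM in KO in CM and 85.8, 83.9 and 86.0 in KO in control medium. In WT it stood at 92.3, 82.6, 88.2 and 84.5 CPM in CM and 88.9, 83.1, 82.5 and 84.4 in control medium. The KO groups did not overlap and the WT groups did. The log2 fold change was 0.13 ± 0.06 in KO (edgeR adjusted p = 0.0934) and 0.04 ± 0.05 in WT (edgeR adjusted p = 0.615). Over 27 alternatives the KO value ran from 0.02 to 0.16 and passed in 3, at 0.13 in each. These were a fit blocked on replicate number (adjusted p = 0.0285), the split of the WT libraries as a batch term (0.0405) and a fit without WT libraries 1 and 2 (0.0328). The first 2 called 6674 and 6692 of all 13311 genes, and the third 6647 of 13485.

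Ltc4s (chr11:50236461-50238532, minus strand), the enzyme that commits leukotriene A4 to the cysteinyl leukotrienes, rose in both genotypes. Its levels were 71.3, 67.6 and 71.8 CPM in KO in CM, against 15.4, 16.2 and 16.2 in KO in control medium. They were 56.8, 66.4, 53.0 and 49.6 CPM in WT in CM, against 17.5, 15.4, 12.6 and 12.3 in WT in control medium. The lowest CM library, at 49.6 CPM, lay far above the highest control library, at 17.5 CPM. The log2 fold change was 2.14 ± 0.13 in KO (4.41-fold, edgeR adjusted p = 3.09e-09) and 1.97 ± 0.11 in WT (3.92-fold, edgeR adjusted p = 1.07e-09). All 7 exon entries were higher in CM, by 2.03 to 2.36 in KO and 1.90 to 2.06 in WT on the log2 scale. Ltc4s shares 268 exon bases with Gm26542 on the opposite strand, whose reads cannot be told apart from its own there, and some of its 7 entries overlap one another. Of 5 markers of eosinophils, which also make LTC4, the summed level was 6.93 to 8.36 CPM in KO in CM and 5.00 to 5.77 in KO in control medium, and 5.25 to 5.77 in WT in CM and 4.67 to 5.52 in WT in control medium. The granule protein genes Prg2 and Epx were at 0 to 4 counts per group, while Siglecf averaged 6.60 CPM in KO in CM against 1.36 in KO in control medium, and 4.33 in WT in CM against 1.04 in WT in control medium. Ccr3 ran the other way, at 1.22 against 3.89 CPM in KO and 1.09 against 4.12 CPM in WT.

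**Figure D2:**
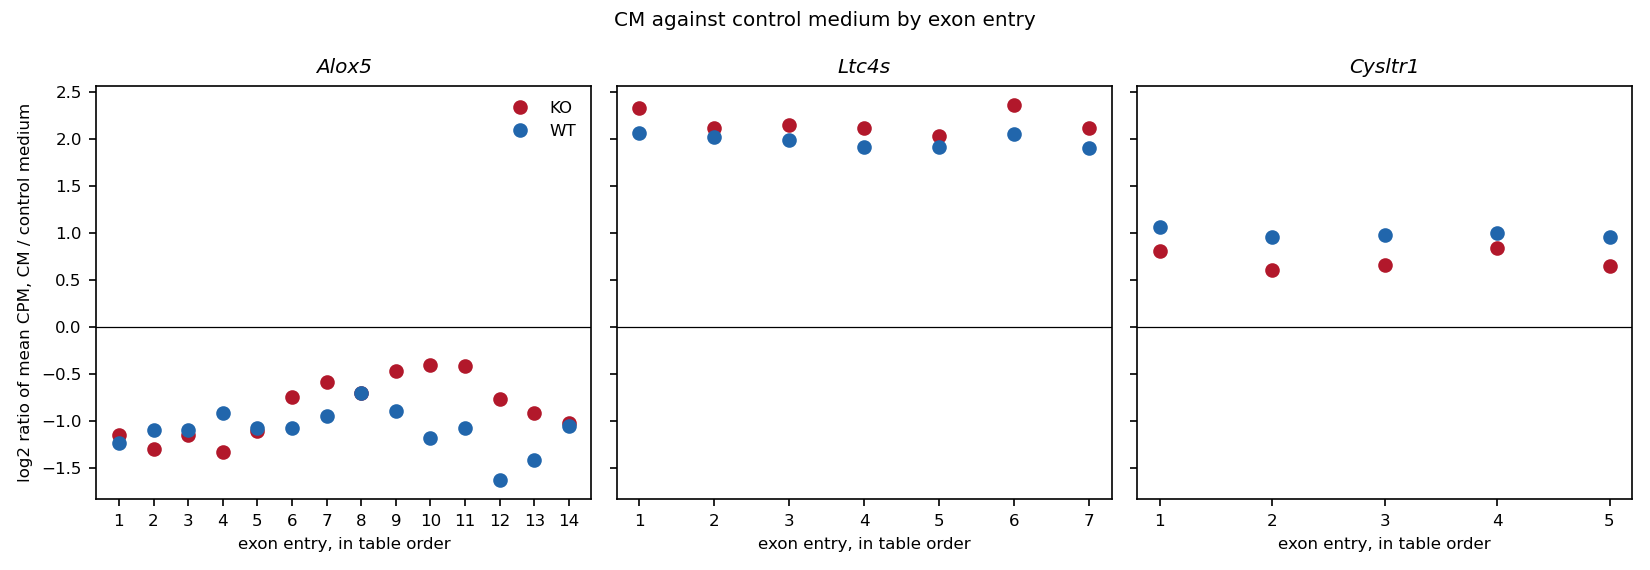
Log2 ratio of mean CPM, CM over control medium, for each distinct exon entry of Alox5, Ltc4s and Cysltr1 in the order of the table; red points are KO and blue points WT. All 14 Alox5 entries lie below 0, and all 7 Ltc4s and all 5 Cysltr1 entries lie above 0 in both genotypes.

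Cysltr1 (chrX:106576509-106603679, minus strand), the main receptor for LTD4, rose in CM. It was measured at 50.8, 47.4 and 46.6 CPM in KO in CM and at 27.7, 28.9 and 28.5 in KO in control medium. In WT it was measured at 51.5, 55.9, 49.0 and 54.4 CPM in CM and at 27.9, 22.7, 26.5 and 26.3 in control medium. The lowest CM library (46.6 CPM) exceeded the highest control library (28.9 CPM). The log2 fold change was 0.77 ± 0.08 in KO (edgeR adjusted p = 1.06e-06) and 1.03 ± 0.07 in WT (edgeR adjusted p = 6.46e-09).

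Ltb4r1 (chr14:55765962-55768492, plus strand), which encodes the high-affinity LTB4 receptor BLT1, had the largest fold change and the lowest level of the 7. Its levels were 1.07, 1.06 and 1.74 CPM in KO in CM and 0.255, 0.193 and 0.226 in KO in control medium. In WT they were 1.15, 1.70, 1.10 and 1.32 CPM in CM and 0.152, 0.157, 0.207 and 0.238 in control medium. These rested on 197, 35, 317 and 52 counts summed over the libraries of KO in CM, KO in control medium, WT in CM and WT in control medium. The groups did not overlap, and the log2 fold change was 2.52 ± 0.30 in KO (5.75-fold, edgeR adjusted p = 7.66e-06) and 2.75 ± 0.26 in WT (6.74-fold, edgeR adjusted p = 4.96e-07). The summed level of the 9 neutrophil markers, cells rich in BLT1, was 0.598 to 1.36 CPM in KO in CM and 1.11 to 3.16 in KO in control medium, and 1.03 to 1.5 in WT in CM and 0.977 to 1.94 in WT in control medium. Members of the list went both ways: S100a9 had 14 counts in KO in CM and 129 in KO in control medium, and 127 in WT in CM and 166 in WT in control medium, whereas Elane had 27 counts in KO in CM and 2 in KO in control medium, and 44 in WT in CM and 3 in WT in control medium. Their part in the rise of Ltb4r1 was not tested.

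Levels between genes were compared as CPM per kilobase of distinct exon. A fragment spanning exons may count more than once, so the order of the genes depends in part on exon structure. The Lta4h entry of 24 bases had 3314 counts over all libraries and its entry of 273 bases had 2796, and some Ltc4s entries overlap one another. In control medium the order was Alox5ap (375 ± 12.3 in KO, 408 ± 16.3 in WT), Lta4h (41.3 ± 0.56 and 41.0 ± 1.41), Ltc4s (18.0 ± 0.526 and 16.4 ± 2.83), Cysltr1 (9.30 ± 0.196 and 8.48 ± 0.73), Pla2g4a (4.04 ± 0.282 and 3.82 ± 0.224), Alox5 (3.63 ± 0.536 and 3.74 ± 0.331) and Ltb4r1 (0.161 ± 0.0222 and 0.135 ± 0.0297), as mean ± SD with n = 3 in KO and n = 4 in WT. Pla2g4a and Alox5 did not differ beyond their spread there. In CM, Ltc4s stood above Lta4h, at 79.4 ± 2.54 against 45.1 ± 2.5 in KO and 63.9 ± 8.25 against 42.1 ± 2.09 in WT. Pla2g4a stood above Alox5 in CM, at 7.91 ± 0.355 against 1.99 ± 0.238 in KO and 6.33 ± 0.595 against 1.75 ± 0.121 in WT.

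The per-length ratio of Ltc4s to Lta4h, the enzymes that compete for leukotriene A4, was above 1 in every CM library and below 1 in every control library. It was 1.87, 1.73 and 1.69 in KO in CM, against 0.420, 0.451 and 0.441 in KO in control medium. In WT it was 1.44, 1.88, 1.40 and 1.37 in CM, against 0.461, 0.434, 0.356 and 0.340 in control medium. The ratio of Alox5 to Alox5ap averaged 0.00467 ± 0.000591 in KO in CM and 0.00965 ± 0.00113 in KO in control medium, and 0.00388 ± 0.000309 in WT in CM and 0.00916 ± 0.00106 in WT in control medium (SD). These ratios of RNA levels are descriptions of the values above and were not tested. They depend on exon structure as the levels do, so a ratio of 1 does not mark equal numbers of transcripts.

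**Figure D3:**
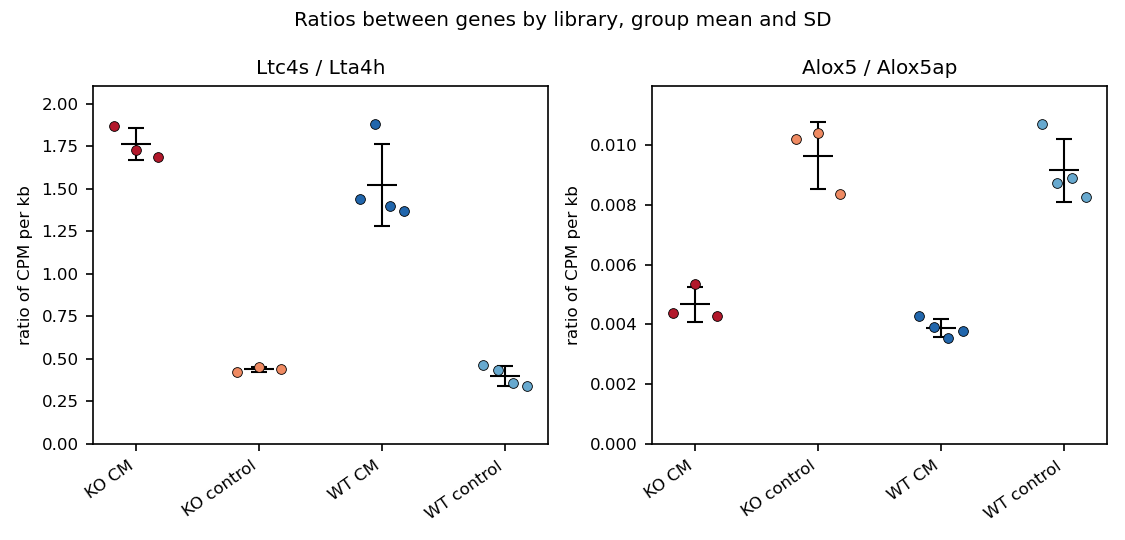
Ratio of CPM per kilobase in each library, Ltc4s over Lta4h (left) and Alox5 over Alox5ap (right); points are libraries, bars the group mean and SD. Ltc4s over Lta4h is 1.37 to 1.88 in the CM libraries and 0.340 to 0.461 in the control libraries, and Alox5 over Alox5ap is lower in CM.

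Differences between KO and WT macrophages were small for the 7 genes, with log2 fold changes of -0.13 to 0.32, and the 1 call, a higher Pla2g4a in KO in CM, was lost under many settings. In CM, 1 of the 7 passed the test, Pla2g4a, against 4.59% of all 13311 genes (3.10% called higher in KO). Its level was 24.1 ± 1.08 CPM in KO in CM and 19.3 ± 1.81 in WT in CM (SD, n = 3 and 4), without overlap, and the log2 fold change was 0.32 ± 0.08 (edgeR adjusted p = 0.0399). The call held in 14 of 27 alternatives, and without WT libraries 3 and 4 the value was 0.25 (adjusted p = 0.153). It was also lost, in fits that leave out 1 library, without KO CM library 1, 2 or 3 (adjusted p = 0.0683, 0.119 and 0.122), without KO control library 2 or 3 (0.0552 and 0.0509), and without WT CM library 1, 3 or 4 (0.0579, 0.0813 and 0.115). The other 6 genes ranged between -0.13 ± 0.07 for Cysltr1 and 0.32 ± 0.11 for Ltc4s. Alox5ap was -0.08 ± 0.05 (edgeR adjusted p = 0.289), its KO libraries lying below its WT libraries. Of its 5 exon entries, 3 were higher and 2 lower in KO, with log2 ratios of -0.28 to 0.15.

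In control medium none of the 7 passed edgeR's test for KO against WT, against 5.32% of all genes. At an unadjusted p below 0.05 there was 1, Alox5ap (-0.12 ± 0.05, edgeR adjusted p = 0.121), whose libraries did not overlap between the genotypes. Of all 13311 genes, 3403 had an unadjusted edgeR p below 0.05 there. The 5 Alox5ap exon entries went both ways, 2 higher and 3 lower in KO, with log2 ratios of -0.33 to 0.20. DESeq2 called 1 of the 7, Alox5ap (adjusted p = 0.0249), against 11.3% of all genes. Limma-voom called 2 of the 7, Alox5ap (adjusted p = 0.0178) and Ltc4s (adjusted p = 0.043), against 35.7% of all genes. The other 6 genes had edgeR log2 fold changes of -0.04 to 0.21, the highest being that of the sparsely counted Ltb4r1 (0.21 ± 0.33). Summed macrophage markers were lower in KO in both media, in which Lyz2, at the Cre locus, averaged 9480 CPM in KO in CM against 20500 in WT in CM, and 10200 in KO in control medium against 21900 in WT in control medium. The other 7 macrophage markers summed to 9870 to 10400 CPM in KO in CM and 10300 to 10900 in WT in CM, and to 11200 to 11600 in KO in control medium and 11000 to 11900 in WT in control medium, so these ranges overlapped in both media. The part of the lower Lyz2 in the results of the 7 genes was not tested.

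Ltc4s between the genotypes turned on which WT libraries were used. In CM the 3 KO libraries, at 67.6 to 71.8 CPM, lay above the 4 WT libraries, at 49.6 to 66.4 CPM, with a log2 fold change of 0.32 ± 0.11 that did not pass (edgeR adjusted p = 0.117). In CM it passed with limma-voom (0.36, adjusted p = 0.0125) and without WT CM library 2 (0.40, adjusted p = 0.0474). With WT libraries 1 and 2 left out the difference was 0.45 in CM (adjusted p = 6.28e-05) and 0.36 in control medium (adjusted p = 0.000561). Of all 13485 genes tested in that setting, 4791 were called in CM and 5246 in control medium. With WT libraries 3 and 4 left out the Ltc4s difference was -0.04 in control medium (adjusted p = 0.84), and the CM difference did not pass. The labels give no batch for any library, KO or WT. Genotype and any batch therefore cannot be told apart in any comparison of KO with WT.

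For the difference between the CM responses of KO and WT (the interaction), edgeR called none of the 7 genes and 0% of all genes. At an unadjusted p below 0.05 there was 1 member, Cysltr1, whose rise was smaller in KO (-0.26 ± 0.10, unadjusted p = 0.0201, adjusted p = 0.512). DESeq2 and limma-voom called 0 of the 7. Among all genes, 1050 had an unadjusted p below 0.05 in edgeR, while DESeq2 called 84 (0.631%) and limma-voom 27 (0.203%). The interaction of Pla2g4a was 0.24 ± 0.12 (adjusted p = 0.665) and that of Ltc4s 0.17 ± 0.16 (adjusted p = 0.87).

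**Figure D4:**
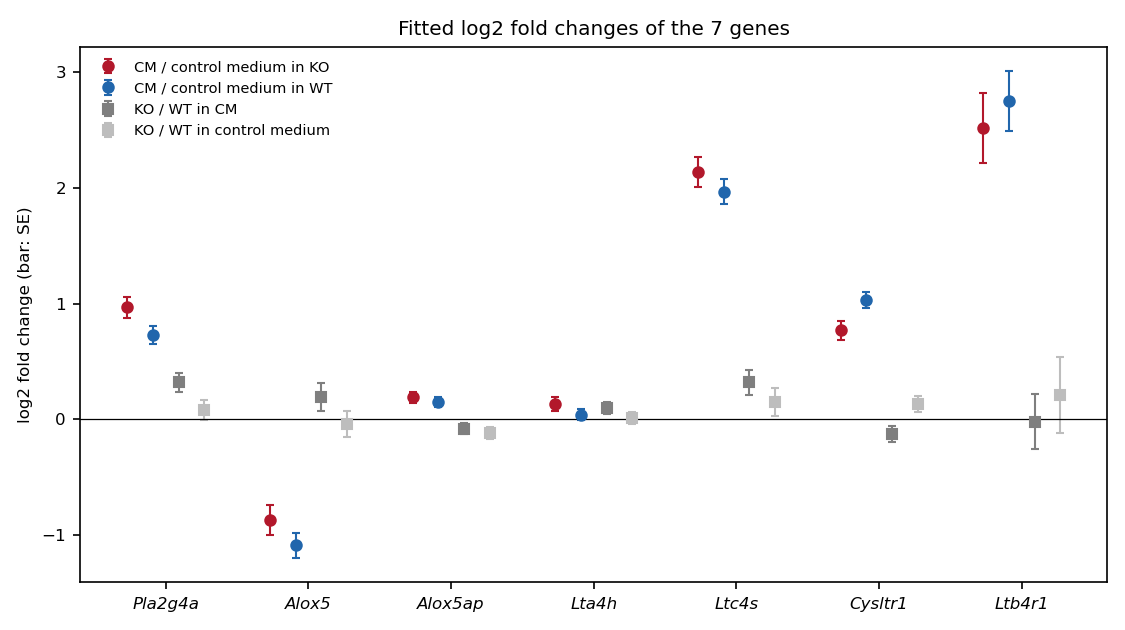
Fitted log2 fold change of each of the 7 genes with its standard error, for CM over control medium in KO (red) and WT (blue) and for KO over WT in CM (dark grey) and in control medium (light grey). The CM values run between -1.09 for Alox5 and 2.75 for Ltb4r1, and the KO values between -0.13 and 0.32.

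Other genes that process or sense leukotrienes moved both ways. Of 15 listed, 11 were tested: 2 were called higher and 5 lower in CM in KO, and 3 higher and 4 lower in WT, with medians of -0.43 and -0.30 beside -0.01 for all genes, of which 38.1% and 37.3% were called. Called lower in both were Ggt5, which converts LTC4 to LTD4 (-1.98 ± 0.41 in KO, -1.77 ± 0.37 in WT), Dpep2, a dipeptidase that converts LTD4 to LTE4 (-0.60 ± 0.09 and -0.60 ± 0.08), and Abcc1, an exporter of LTC4 (-0.64 ± 0.10 and -0.55 ± 0.08). Ggt5 stood at 0.518 ± 0.432 CPM in KO in CM and 2.14 ± 0.0817 in KO in control medium, and at 0.395 ± 0.153 in WT in CM and 1.37 ± 0.195 in WT in control medium (SD, n = 3 and 4). Without KO CM library 3 the Ggt5 change in KO was -2.98 (edgeR adjusted p = 1.99e-05). Cyp4f18, a hydroxylase that inactivates LTB4, was also lower (-0.34 ± 0.11 in KO, edgeR adjusted p = 0.0204; -0.30 ± 0.09 in WT, edgeR adjusted p = 0.0185).

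Ptgr1, an oxidoreductase that inactivates LTB4, was called higher, at 87.5 ± 6.79 CPM in KO in CM against 44.0 ± 2.02 in KO in control medium, and at 83.3 ± 2.63 in WT in CM against 44.3 ± 1.59 in WT in control medium. Its log2 fold change was 0.99 ± 0.06 in KO (edgeR adjusted p = 8.6e-09) and 0.91 ± 0.06 in WT (edgeR adjusted p = 3.29e-09). Cotl1, an actin-binding protein that also binds 5-lipoxygenase, was higher by 0.26 ± 0.07 in KO and 0.25 ± 0.06 in WT, the KO call being lost with library totals (0.16). Mgst2 and Mgst3, glutathione transferases related to Ltc4s, did not pass edgeR's test in any of the 4 comparisons or the interaction. For KO against WT in CM, 0 of the 11 passed by edgeR, 1 at an unadjusted p below 0.05, 0 by DESeq2 and 1 by limma-voom (Mgst3), tools that called 9.21% and 13.5% of all genes there. In control medium 0 passed by edgeR, 4 at an unadjusted p below 0.05, 1 by DESeq2 (Cysltr2) and 8 by limma-voom, tools that called 11.3% and 35.7% of all genes there. Of all 13311 genes, 3110 had an unadjusted edgeR p below 0.05 in CM and 3403 in control medium.

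**Figure D5:**
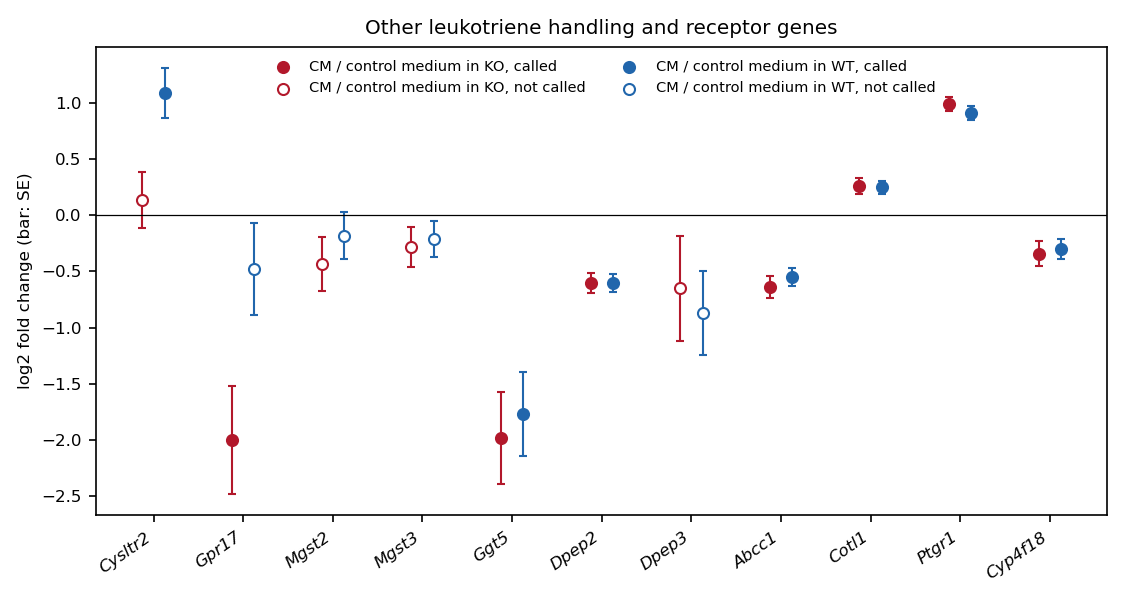
Log2 fold change with standard error for the 11 tested leukotriene handling and receptor genes, CM over control medium, in KO (red) and WT (blue); filled points passed at an adjusted p below 0.05 and open points did not. Ptgr1 and Cotl1 lie above 0, and Ggt5, Dpep2, Abcc1 and Cyp4f18 below 0, in both genotypes.

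Among the other receptors, Cysltr2, the second cysteinyl leukotriene receptor, stood at 1.19 ± 0.167 CPM in KO in CM and 1.07 ± 0.248 in KO in control medium, and at 1.31 ± 0.154 in WT in CM and 0.603 ± 0.168 in WT in control medium. It rose in WT (1.09 ± 0.22, edgeR adjusted p = 0.00107) and did not pass in KO (0.14 ± 0.25, edgeR adjusted p = 0.71); the interaction did not pass (-0.95 ± 0.34, adjusted p = 0.46), and the WT call was lost on the most-counted exon. Gpr17, reported as a regulator of cysteinyl leukotriene receptors, was below 0.5 CPM in every library and was lower in KO in CM (-2.00 ± 0.48, edgeR adjusted p = 0.00383), with no call in WT (-0.48 ± 0.41, edgeR adjusted p = 0.392). Ltb4r2, the low-affinity LTB4 receptor beside Ltb4r1 on chromosome 14, had 0, 1, 13 and 7 counts in KO in CM, KO in control medium, WT in CM and WT in control medium, and was not tested. Oxgr1, reported as a receptor for LTE4, had 1 count in all.

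A further list held 20 genes of acyl chain release from lipids or return to them, not all of them specific to arachidonic acid. Of these, 13 were tested: 3 were higher and 4 lower in CM in KO, and 4 higher and 5 lower in WT, with medians of 0.01 and 0.03. The shares of all genes called were 38.1% in KO and 37.3% in WT. Lpcat2, an acyltransferase that also makes platelet-activating factor, was lower (-0.96 ± 0.06 in KO, -0.64 ± 0.05 in WT), as were Lpcat1 (-0.93 ± 0.06 and -0.72 ± 0.05), Pla2g7, the platelet-activating factor acetylhydrolase (-1.50 ± 0.14 and -1.08 ± 0.12), and the diacylglycerol lipase Daglb (-0.57 ± 0.06 and -0.48 ± 0.05). Pla2g15, a lysosomal phospholipase, and Acsl4, which activates arachidonic acid for esterification, were higher, by 0.30 ± 0.05 and 0.32 ± 0.06 in KO and by 0.36 ± 0.04 and 0.31 ± 0.05 in WT; the KO call of Acsl4 was lost on the most-counted exon (0.15).

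Of the 13 tested genes of this list, 1 was called higher and 2 lower in KO in CM, beside 4.59% of all genes called. In control medium 1 of the 13 was called higher in KO, beside 5.32% of all genes called. Lpcat2 was lower in KO in CM, at 75.1 ± 3.87 CPM against 98.7 ± 6.06 in WT in CM (-0.39 ± 0.06, edgeR adjusted p = 0.00144), and so was Pla2g7, at 19.2 ± 1.26 against 30.7 ± 6.34 (-0.68 ± 0.13, edgeR adjusted p = 0.00935). Daglb was higher in KO, at 121 ± 6.18 CPM in KO in CM against 98.4 ± 7.63 in WT in CM (0.30 ± 0.06, edgeR adjusted p = 0.00943), and at 180 ± 2.84 in KO in control medium against 137 ± 1.99 in WT in control medium (0.39 ± 0.06, edgeR adjusted p = 0.00172). The Lpcat2 and Daglb calls were lost on the most-counted exon, and the Daglb call in CM also with only the groups compared.

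Other lipoxygenases were barely counted: Alox12, Alox12b, Alox12e, Alox15, Alox8 and Aloxe3 all fell below the filter, Alox15 averaging 0.179 ± 0.114 CPM in KO in CM and 0.0745 ± 0.0689 in KO in control medium, and 0.0816 ± 0.0757 in WT in CM and 0.0339 ± 0.0328 in WT in control medium. Of the 13 genes listed with them, 5 were tested, with 1 higher and 1 lower in CM in each genotype and medians of 0.18 in KO and 0.55 in WT, beside 38.1% and 37.3% of all genes called. Gpx4, which reduces lipid hydroperoxides, was higher (0.67 ± 0.09 in KO, 0.55 ± 0.08 in WT), and Gpr18, reported as a receptor for a resolvin, was lower (-2.54 ± 0.59 and -1.75 ± 0.45), a WT call lost without WT libraries 3 and 4 (-1.20). Gpr18 had 11 counts in KO in CM and 70 in KO in control medium. It had 32 in WT in CM and 123 in WT in control medium. In the same order its group means were 0.0805 ± 0.0662, 0.461 ± 0.148, 0.138 ± 0.0681 and 0.451 ± 0.108 CPM (SD). Without KO CM library 2 the Gpr18 change in KO was -3.40 (edgeR adjusted p = 0.00201). Receptors with no call were Cmklr1, at 1.31 ± 0.0286 CPM in KO in CM and 1.17 ± 0.128 in KO in control medium, 1.39 ± 0.286 in WT in CM and 1.26 ± 0.142 in WT in control medium, and Fpr1 and Fpr2, with group means of 0.163 to 0.824 CPM. Lgr6 had 2 counts in all.

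Of 6 kinases known to act on cytosolic phospholipase A2 or 5-lipoxygenase, 2 were higher and 1 lower in CM in KO, and 2 higher and 2 lower in WT, beside 38.1% and 37.3% of all genes called; their median log2 fold changes were 0.09 and 0.00. Camk2g, a calcium- and calmodulin-dependent kinase subunit, was higher by 0.76 ± 0.09 in KO and 0.52 ± 0.07 in WT, and Mapk3 (ERK1) was lower (-0.27 ± 0.06 and -0.31 ± 0.05), its WT call being lost on the most-counted exon. The small changes of Mapkapk2 (0.20 ± 0.07 in KO and 0.18 ± 0.06 in WT) were called in 16 of 27 alternatives in KO and 17 of 27 in WT, and that of Mapk14 (-0.18 ± 0.06 in WT) in 13 of 27.

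The genes whose centred log2 levels over the 14 libraries lay nearest to each of the 7 were found by root mean square difference, as a description across libraries that share media, genotypes and depth. Nearest to Ltc4s was Fdps, a farnesyl diphosphate synthase of the sterol pathway, at 0.109, with CM log2 fold changes of 2.22 in KO and 1.99 in WT, and then Tmem268 at 0.171. Nearest to Pla2g4a were Dhcr7, a late enzyme of cholesterol synthesis (0.108), and Pdia6, a disulfide isomerase of the endoplasmic reticulum (0.111). Alox5 lay nearest to the kinase gene Ptk2b (0.127) and Fhl3 (0.139), Cysltr1 to Clcn5 (0.0916) and the lysosomal protease gene Ctsd (0.0962), and Ltb4r1 to Tppp3 (0.244) and Relt (0.268). Alox5ap lay nearest to Pik3r5 (0.0373) and Efcab14 (0.044), and Lta4h to Xpo7 (0.0442) and Psme4 (0.0465), profiles that varied little: the root mean square of the centred levels was 0.102 for Alox5ap and 0.0724 for Lta4h, against 1.04 for Ltc4s.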

How the data were processed

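Libraries were made with the QIAseq Stranded mRNA Select kit and read as paired ends of 150 bp, per the labels' protocols. The deposited values are raw counts per exon entry of each transcript; alignment with HISAT2 to mm10 is named in the submitters' processing notes, and the counting tool, annotation and strand setting are not given in the sources used here. The table listed 427386 exon entries, 0 of them without a gene; repeats of one exon were removed (230445 left) and counts summed per gene, so a fragment spanning exons may count more than once. Genes passing filterByExpr (minimum count 10, total 15) were fitted with edgeR 4.0.16 (R 4.3.3): TMM factors, 4 group means over 14 libraries, quasi-likelihood tests, Benjamini-Hochberg adjustment at 0.05. CPM used the same factors; standard errors are the fold change over the square root of F. Profiles used log2 CPM with a prior count of 2. The pipeline was tested on simulated data.

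The members and gene lists were chosen with earlier results of these data known. Named were all 7 members, the up to 6 called genes of each list with the smallest p, every listed receptor with its level, and the 2 genes nearest each member. Beyond the rule, Ltb4r2's neighbour position, Cyp4f18, Mgst2, Mgst3 and Alox15 were named after their values were seen.

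Labels give replicate numbers. Same-numbered WT libraries correlated in their deviations at 0.33, 0.35, 0.47 and 0.46, over the limit of 0.1, but so did other numbers within the same pair; KO pairs gave 0, -0.04 and 0.05. Alternatives tried were DESeq2 1.42.0 size factors and test, limma-voom (limma 3.58.1), library totals, other filters, all entries or one exon per gene, fewer groups, a replicate block, a batch term, a stricter threshold and leaving out libraries. Positions and promoters are from RefSeq on GRCm38.p6 and overlaps from GENCODE M21 (GRCm38, the same assembly as mm10).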

Additional observations from a re-analysis of the deposited data

How the results depend on the processing

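The CM calls of Pla2g4a, Alox5, Ltc4s, Cysltr1 and Ltb4r1 held in both genotypes in all 27 alternatives, with log2 fold changes in KO of 0.50 to 1.03, -1.13 to -0.79, 2.03 to 2.17, 0.66 to 0.81 and 2.24 to 2.65, and in WT of 0.60 to 0.85, -1.23 to -1.04, 1.88 to 2.07, 0.95 to 1.09 and 2.44 to 3.19. Library totals alone moved the split of all CM calls to 1941 higher and 3624 lower in KO (2659 and 2418 as reported) and to 1957 and 3501 in WT (2570 and 2390).

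For KO against WT in control medium, the number of the 7 genes called was 1 with DESeq2, 2 with limma-voom and 2 with WT libraries 1 and 2 left out, where 0 is reported. In CM it was 0 with no filter, with only the groups compared, with the most-counted exon, with WT libraries 3 and 4 left out and at an adjusted p below 0.01, 2 with limma-voom and with WT libraries 1 and 2 left out, and 0 to 2 with single libraries left out, where 1 is reported. With the replicate number as a block it was 0, Pla2g4a being 0.27 (adjusted p = 0.131). The block made the CM change of Lta4h in KO a call (0.13, adjusted p = 0.0285). With it 7 of 7 were called there, beside 6674 of all 13311 genes. The block gave 205 interaction calls over all genes and none of the 7, and changed no other call of the 7. A batch term gave 164 interaction calls.

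Over all genes, KO against WT in control medium gave 708 calls, but 1501 with DESeq2, 4757 with limma-voom, 5246 without WT libraries 1 and 2, 283 with only the groups compared, 453 with the block and 385 on the most-counted exon. In CM it gave 611, but 1226 with DESeq2, 1794 with limma-voom, 4791 without WT libraries 1 and 2, 306 with the block and 923 with a batch term. The causes were not tested.

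Values near 0 that changed sign, none of them called, were the interaction of Pla2g4a (-0.27 on the most-counted exon) and of Ltb4r1 (0.09 without WT libraries 1 and 2), and Lta4h in CM in WT (-0.05 with totals). For KO against WT in control medium, Alox5 was 0.01 with totals, 0.04 with limma-voom, 0.29 on the most-counted exon, 0.05 without WT libraries 1 and 2 and -0.12 to 0.08 with single libraries left out. Lta4h was -0.01 with a batch term and without WT libraries 3 and 4, and -0.00 to 0.03 with single libraries left out. Ltc4s was -0.01 with a batch term and -0.04 without WT libraries 3 and 4. Ltb4r1 in CM was 0.01 with totals, 0.09 on the most-counted exon, 0.11 without WT libraries 1 and 2 and -0.31 to 0.12 with single libraries left out.

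Depth limits Ltb4r1, Gpr17, Gpr18 and Ltb4r2, which rest on few counts per library.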
